A study of Mus musculus with 12 samples.

Results

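KO1, KO2, KO4 and KO6 are 4 of the 6 mouse embryos that were sequenced after deletion of Traf7 (KO), and they were compared with the 6 wild-type embryos (WT1 to WT6), so that 10 of the 12 libraries of the series entered the comparison. These 4 were selected on measured expression: they are the KO libraries without the strong rise of low-oxygen genes found in KO3 and KO5, which were set aside. All embryos were of the C57BL6/J strain, were collected at embryonic day 9.5, and no treatment is labelled. The KO embryos are homozygous for a Traf7 allele deleted in the whole body by a ubiquitous Cre (E2a-Cre), and the asterisk in their label marks the line in which an intron of 2310061I04Rik, further along chromosome 17, also carries a small deletion. That line came from 1 embryonic stem cell clone, and losing Traf7 and losing 2310061I04Rik cannot be told apart in these embryos. WT embryos are labelled wild type, and the state of 2310061I04Rik in each of them was not tested. The title of the series speaks of brain, whereas the labels of every sample give embryos. Of the transcripts of mature brain, Gfap, an astrocyte filament, reached 0.0649 FPKM (fragments per kilobase, scaled to library size) in the 4 KO libraries and 0.0548 FPKM in WT, and Snap25, a synaptic protein, reached 0.333 FPKM in KO and 0.271 FPKM in WT, while Mbp, a myelin gene, had 2.17 to 2.89 FPKM in KO and 2.06 to 2.46 FPKM in WT. Embryonic globins were abundant, with Hbb-y at 1548 to 3295 FPKM in KO and 1319 to 3775 FPKM in WT.

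TRAF7, an E3 ubiquitin ligase, binds the kinase MEKK3, and loss of it is lethal to mouse embryos before birth. MEKK3 acts through the kinases MEK5 and ERK5 on MEF2 transcription factors, which in endothelium drive Klf2, a factor that endothelial cells make when blood flows over them. At this stage the heart has begun to beat and growing embryos come to depend on their own circulation for oxygen. When oxygen is short, the hypoxia-inducible factor (HIF) turns on genes of glycolysis, glucose uptake, mitochondrial removal and vessel growth.

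The 10 libraries held 16675204 to 21586416 counts, and 2 of the 4 KO and 3 of the 6 WT embryos carried Y-linked transcripts. The floor of 3 counts that an empty gene allows was 0.136 to 0.179 CPM (counts per 1e+06 counts of a library, scaled by TMM factors) in these libraries. No library was a copy of another. Several embryos stood apart in lists of genes that mark regions of the body. The posterior Hox genes were low in KO2, KO6 and WT5, and the yolk sac endoderm genes were high in KO6 and WT2 and low in KO2. Counts of changed genes are therefore also given without these libraries. The labels do not say which embryos were littermates, so the spread behind each p-value is that among these embryos, whatever its source. The KO libraries were chosen on the same data, so each p-value is conditional on that choice.

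Measured as the mean log2 ratio to WT over 39 HIF target and glycolysis genes (of 40 listed, 39 passed the filter on low counts), the 4 KO embryos lay moderately above WT. The scores were 0.51 in KO1, 0.32 in KO2, 0.31 in KO4 and 0.31 in KO6, against -0.17 to 0.25 in the 6 WT embryos, the highest of which was WT1. Just outside the selection, KO3 scored 1.28 and KO5 scored 1.79. The 4 selected embryos thus sat above every WT embryo and well below the 2 set aside. Because the embryos were chosen on these genes, they are given as a description without a test.

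**Figure D1:**
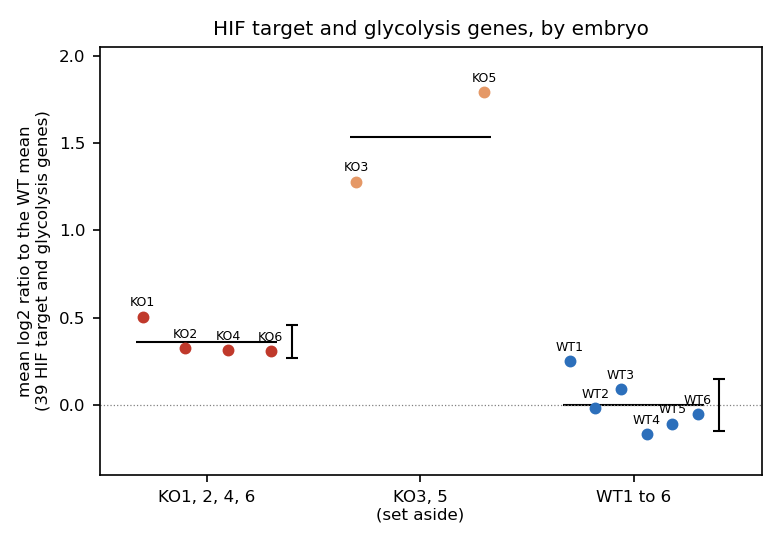
Mean log2 ratio to the WT mean over 39 HIF target and glycolysis genes (y axis) in each embryo: the 4 KO embryos compared (red), the 2 KO embryos set aside (orange) and the 6 WT embryos (blue). Lines are group means, and bars are SD for the groups of 4 and 6. The compared KO embryos lie between 0.31 and 0.51, KO3 and KO5 at 1.28 and 1.79, and WT between -0.17 and 0.25.

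Of these 39 genes, 38 had a log2 fold change above 0 in the 4 KO embryos over WT, with a median of 0.32, beside 51.0% of all 14991 genes tested and a median of 0.00. For 12 of the 39 every KO library lay above every WT library, which 1.66% of all genes tested did. Nothing is read from these counts, since the selection used the list.

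By log2 fold change the list was led by Ndufa4l2 (1.31, groups overlapping), Bnip3, Ddit4 (0.91) and Adm (0.90), and it ended with Pfkfb4 (-0.07). Bnip3, a receptor that marks mitochondria for removal, measured 116, 132, 90.3 and 93.6 CPM in KO1, KO2, KO4 and KO6, against 47.1 (lowest), 53.6 (median) and 65.4 CPM (highest) in WT, and the groups did not overlap. Its log2 fold change was 1.01 (SE 0.125). KO3 and KO5 had 328 and 323 CPM. The related receptor Bnip3l measured 234 to 279.5 CPM in KO and 182 to 209.7 CPM in WT (log2 fold change 0.36, SE 0.0563). The product of the kinase gene Pdk1 limits the use of pyruvate in the mitochondrion. Pdk1 had 218, 205, 173 and 174 CPM in the 4 KO libraries. WT had 107 (lowest), 118 (median) and 129 CPM (highest), again without overlap (log2 fold change 0.70, SE 0.0687).

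Among the genes of glycolysis, Pfkp, a phosphofructokinase, had a log2 fold change of 0.55 without overlap of the groups, and Hk2, a hexokinase, one of 0.39 with overlap. Pgk1, phosphoglycerate kinase, measured 1654 to 2150 CPM in KO and 1243 to 1687 CPM in WT, and Ldha, lactate dehydrogenase, 3087 to 3646 CPM in KO and 2460 to 3230 CPM in WT. For Pgk1 and Ldha the groups overlapped through WT1, whose HIF score was the highest of the WT embryos. Pfkfb3, which makes the activator of phosphofructokinase, had 58.1 to 86.1 CPM in KO and 46.9 to 51 CPM in WT (log2 fold change 0.49, SE 0.0875). Vegfa, the vessel growth factor, had 36.4 to 43.1 CPM in KO and 30.4 to 39.3 CPM in WT, with a log2 fold change of 0.26 (SE 0.0759). Slc2a1, a glucose transporter, was at 558 to 648 CPM in KO and 453 to 689 CPM in WT (log2 fold change 0.15, SE 0.125). KO3 and KO5 had 888 and 1253 CPM of it.

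Among the proteins that sense oxygen, Egln1, the prolyl hydroxylase that marks HIF for destruction and is itself a HIF target, had 151 to 177 CPM in KO and 118 to 144 CPM in WT (log2 fold change 0.31, SE 0.0561). The mRNA of Hif1a, the oxygen-labile subunit, had 189 to 199 CPM in KO and 182 to 204 CPM in WT (log2 fold change 0.02, SE 0.0386). Egln2, a second hydroxylase, had 66.1 to 72.8 CPM in KO and 74.4 to 82.9 CPM in WT (log2 fold change -0.14, SE 0.0462, edgeR adjusted p = 0.19). None of the 8 genes in the list of HIF subunits and oxygen sensors, which leaves out Egln1, was called, and 5 were higher and 3 lower.

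The bases before the RefSeq start of Bnip3 and Pdk1 are shown because the HIF core motif can be read in them. They come from RefSeq, build GRCm38.p6, are written from 5′ to 3′ on the strand of the gene and end where the deposited table places the gene. Capitals mark ACGTG or GCGTG, searched on both strands, so that CACGT and CACGC are marked too.
Bnip3, chr7:138909520-138909756, minus strand: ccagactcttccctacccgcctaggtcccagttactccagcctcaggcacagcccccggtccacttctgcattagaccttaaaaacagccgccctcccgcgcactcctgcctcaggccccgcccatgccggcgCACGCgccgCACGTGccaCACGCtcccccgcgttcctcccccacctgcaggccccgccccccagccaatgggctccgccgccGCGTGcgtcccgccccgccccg
Pdk1, chr2:71872974-71873223, plus strand: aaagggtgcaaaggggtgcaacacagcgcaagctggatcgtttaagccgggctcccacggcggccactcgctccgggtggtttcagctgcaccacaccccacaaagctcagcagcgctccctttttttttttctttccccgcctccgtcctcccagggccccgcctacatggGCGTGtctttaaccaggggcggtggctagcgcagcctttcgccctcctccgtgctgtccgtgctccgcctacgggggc
Bnip3 held 5 matches, of which the ACGTG on each strand overlap in one palindrome, and Pdk1 held 1. Of the 39 HIF list genes 33 had a RefSeq sequence, and 31 of those (93.9%) held at least 1 match in the 250 bases before a start, as did 17 of the 20 called higher genes with a sequence (85%), 11 of 14 called higher genes outside the list (78.6%) and 6649 of 10902 genes tested (61%). A match in letters is not a binding site.

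Across all genes, 41 of 14991 passed an edgeR adjusted p of 0.05 or less, which is 0.273%. In the 4 KO embryos 27 genes rose (0.18% of those tested) and 14 fell (0.0934%). At 2-fold or more 5 of the 41 remained, 0.0334% of those tested: Traf7, Klf2, B3gnt3 and Aqp1, which fell, and Bnip3, a gene of the HIF list used in the selection. For the 8 called genes of that list the call is a count only and not a test, because the KO libraries were chosen on it. Before adjustment, p was 0.05 or less for 930 higher and 1046 lower genes. All 41 encode proteins. For each of them the 4 KO and the 6 WT libraries did not overlap, from which nothing is read, since the calls used the same libraries. Among all genes tested, every KO library lay above every WT library for 1.66% and below for 2.37%. Outside the HIF list 33 genes were called, 19 higher and 14 lower. The count depended on the embryos entered: leaving out 1 embryo at a time gave 13 (without KO1) to 68 (without WT1) called genes, without KO2 and KO6 there were 18 (12 higher and 6 lower), and with all 6 KO embryos 3. Outside the HIF list, Traf7, Klf2, Hsph1, Plekha2 and Vldlr were called in all 10 fits without 1 embryo. Plekha2 and Vldlr, the latter known to respond to low oxygen, stood higher still in KO3 and KO5, so for both this is a description. Nothing is read from the same count for HIF list genes. Each of the 41 kept its direction in all 21 other fits, which share most of their libraries, so this too is a description.

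**Figure D2:**
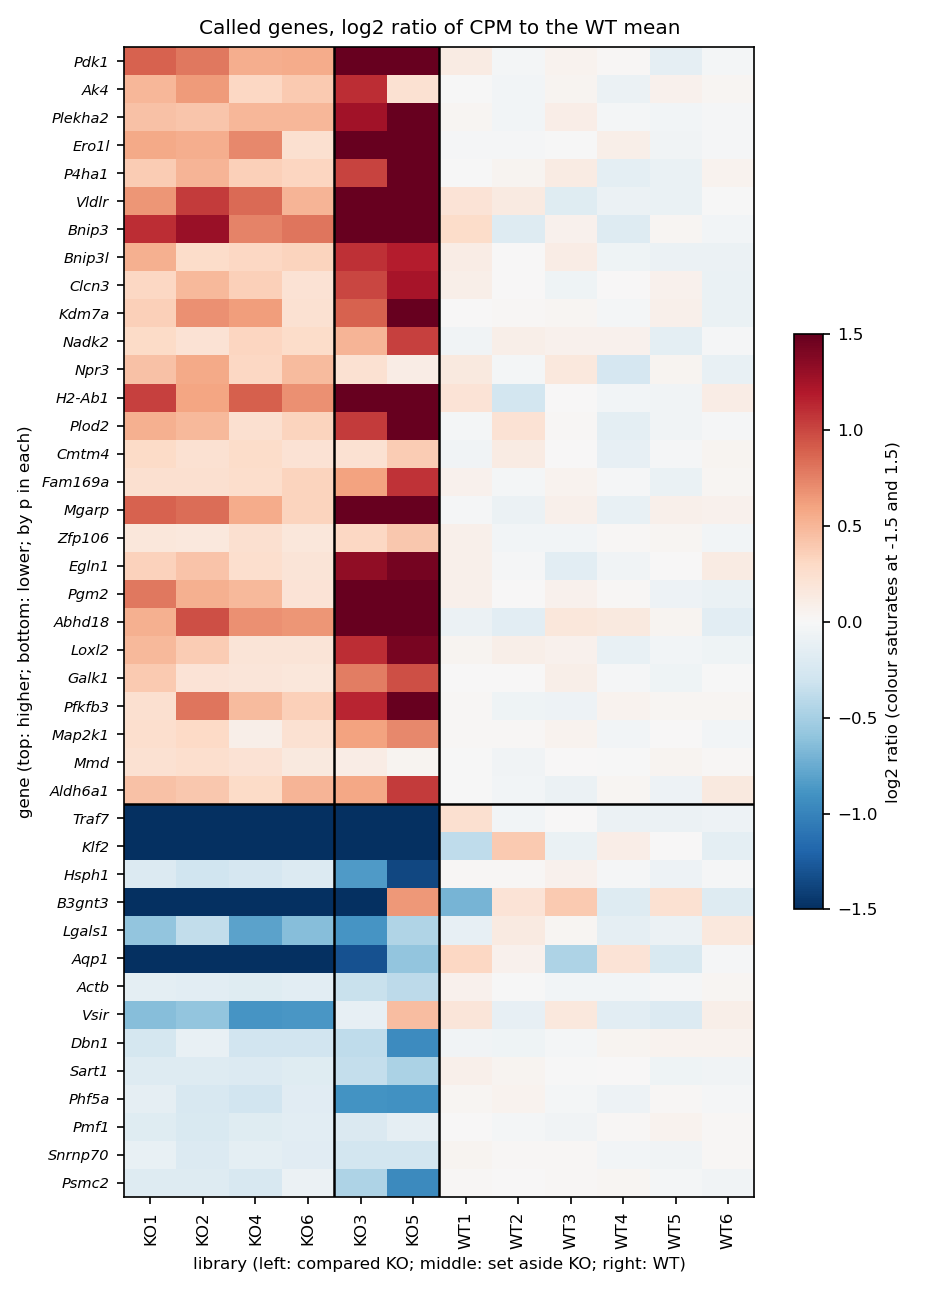
Log2 ratio of CPM to the WT mean for the 27 genes called higher (top) and the 14 called lower (bottom), ordered by p, in each library: compared KO at the left, KO set aside in the middle and WT at the right. Red is above and blue below the WT mean, with the colour capped at both ends of the scale. Most of the higher genes are darkest in KO3 and KO5, with Npr3, Mmd, Ak4 and Cmtm4 as exceptions in at least 1 of them.

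Traf7 (chromosome 17, 24508562 to 24527938, GRCm38) checked the labels. It had 19.3, 17.3, 18.9 and 17.5 CPM in KO1, KO2, KO4 and KO6, against 114 (lowest), 117 (median) and 144 CPM (highest) in WT, and it fell with a log2 fold change of -2.74 (SE 0.0725, edgeR adjusted p = 2.56e-12). KO3 and KO5 had 17.1 and 13.1 CPM. No library went against its label, and which exons the remaining counts come from was not tested.

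2310061I04Rik (chromosome 17, 35892677 to 35897431) had 1.13, 1.82, 1.61 and 6.38 CPM in KO1, KO2, KO4 and KO6, against 7.19 (lowest), 13.4 (median) and 15.8 CPM (highest) in WT. The groups did not overlap, yet KO6 was close to the lowest WT embryo. WT2 and WT4 had 7.19 and 8.04 CPM, and the other WT embryos 12.5 to 15.8 CPM. Why these embryos differ was not tested. The log2 fold change of -2.15 (SE 0.502) missed the threshold of the edgeR test (adjusted p = 0.129). Without KO6 it was -2.98 with an edgeR adjusted p of 0.00371, and DESeq2 gave an adjusted p of 0.00353 with all 10 libraries.

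Klf2 (chromosome 8, 72319033 to 72321656) was nearly absent from the KO embryos. The 4 libraries held 1, 5, 4 and 8 counts, or 0.0516, 0.227, 0.238 and 0.44 CPM in KO1, KO2, KO4 and KO6, against 7.58 (lowest), 9.55 (median) and 13 CPM (highest) in WT. No KO library came near the WT range, and KO3 and KO5, at 0.254 and 0.725 CPM, were also far below WT. The log2 fold change was -5.34 (SE 0.29, edgeR adjusted p = 7.97e-08), the largest of the called genes. Traf7 and Klf2 were the 2 genes called under each of the 21 other fits that were run.

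The bases before Klf2 are shown because they hold the motif of the factors that act on it below ERK5. They are from RefSeq, build GRCm38.p6, 5′ to 3′ on the strand of the gene. Capitals mark a match to CTA and TAG with 4 bases of any kind between them, the outline of the site bound by MEF2 factors, searched on both strands.
Klf2, chr8:72318812-72319032, plus strand: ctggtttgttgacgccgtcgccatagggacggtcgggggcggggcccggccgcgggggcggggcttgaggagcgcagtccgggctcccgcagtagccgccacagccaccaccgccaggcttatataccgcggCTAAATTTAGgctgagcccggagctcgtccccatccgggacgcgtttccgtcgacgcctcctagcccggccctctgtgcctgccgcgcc
The match starts 118 and ends 109 bases before the RefSeq start and reads the same on both strands. In 250 bases before a start the motif was found for 360 of 10902 genes tested (3.3%), for 1 of the 11 called lower genes with a sequence (Klf2) and for none of the 20 called higher ones. It is a match in letters and does not show what binds there.

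Aqp1, a water channel of endothelial and red blood cells that responds to flow, was the other flow-responsive gene called. It had 0.464, 0.545, 0.477 and 0.55 CPM in KO1, KO2, KO4 and KO6 (8 to 12 counts), against 1.18 (lowest), 1.66 (median) and 2.03 CPM (highest) in WT, without overlap. It fell with a log2 fold change of -1.67 (SE 0.258, edgeR adjusted p = 0.0119), and the adjusted p was 0.0169 to 0.0592 when 1 embryo was left out, with the call lost without KO1 or without KO4. KO3 and KO5 had 0.661 and 1.09 CPM. DESeq2 gave no adjusted p for Aqp1 or for B3gnt3, both of which it filtered for low counts.

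Of 27 flow-responsive endothelial genes measured (29 listed), 2 fell and none rose, beside 0.0934% and 0.18% of all genes tested. Nothing is read from the 2, since the list was chosen with earlier results known. In all 12 were higher and 15 lower (log2 fold changes with a median of -0.04). Without KO2 and KO6 the median was 0.03, with 15 higher and 12 lower. The list scores were -0.26, -0.30, -0.24 and -0.29 in KO1, KO2, KO4 and KO6 and -0.15 to 0.13 in WT, and Klf2 and Aqp1 are among the genes averaged. Nos3, which makes nitric oxide in endothelium, had 8.8 to 9.89 CPM in KO and 11 to 15.3 CPM in WT, without overlap, but was not called (log2 fold change -0.39, SE 0.105, edgeR adjusted p = 0.129). The arterial gap junction gene Gja4 had 6.13 to 9.8 CPM in KO and 10.2 to 13.2 CPM in WT (log2 fold change -0.52, SE 0.137, edgeR adjusted p = 0.113). Thbd, the anticoagulant receptor thrombomodulin, had 7.09 to 7.32 CPM in KO and 7.04 to 10.4 CPM in WT (log2 fold change -0.32, SE 0.114, edgeR adjusted p = 0.225).

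Endothelial markers as such were present in both groups, and none of 28 was called. Of these, 9 were higher and 19 lower (log2 fold changes with a median of -0.07), and the list score was -0.17 to 0.08 in KO and -0.08 to 0.15 in WT. Cdh5, the junction protein of endothelium, was at 20.2 to 22.8 FPKM in KO and 20.6 to 25.1 FPKM in WT. In bulk RNA fewer cells of a type and less RNA per cell cannot be told apart. Apln, a ligand made by growing vessel tips, had 18.9 to 21.3 CPM in KO and 14.7 to 16.6 CPM in WT, without overlap (log2 fold change 0.35, SE 0.072, edgeR adjusted p = 0.0572). Flt1, the decoy receptor of VEGF, had 37.1 to 40.1 CPM in KO and 29.3 to 35.5 CPM in WT (log2 fold change 0.24, SE 0.0608, edgeR adjusted p = 0.109). Plvap, of the diaphragms of vessel fenestrae, had 68 to 81.3 CPM in KO and 81.7 to 102 CPM in WT (log2 fold change -0.23, SE 0.0693, edgeR adjusted p = 0.181).

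No transcript of the pathway between TRAF7 and Klf2 passed the test. Of 16 genes for MEKK3, MEK5, ERK5, MEF2 factors and the cerebral cavernous malformation proteins, which restrain MEKK3, 8 were higher and 8 lower (median 0.00). Map3k3 (MEKK3) had 65.8 to 72.8 CPM in KO and 61.8 to 76.4 CPM in WT, Map2k5 (MEK5) 31.3 to 37 CPM in KO and 33.4 to 40.3 CPM in WT, and Mapk7 (ERK5) 86.4 to 92.2 CPM in KO and 84.4 to 93.2 CPM in WT. Map3k2, for the related kinase MEKK2, had 16.9 to 19.2 CPM in KO and 13.1 to 15.2 CPM in WT, without overlap (log2 fold change 0.32, SE 0.0779, edgeR adjusted p = 0.0927). Mef2c had 38.4 to 42.7 CPM in KO and 32.9 to 41.8 CPM in WT (log2 fold change 0.17, SE 0.0718, edgeR adjusted p = 0.318).

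No other Kruppel-like factor was called among 15 measured, 10 of which were lower (median log2 fold change -0.07). Klf7 had 8.25 to 8.93 CPM in KO and 9.95 to 12.1 CPM in WT, without overlap (log2 fold change -0.32, SE 0.0947, edgeR adjusted p = 0.161). Klf6 had 30.9 to 35.4 CPM in KO and 33.1 to 49.5 CPM in WT (log2 fold change -0.30, SE 0.0916, edgeR adjusted p = 0.181). Klf4, a close relative with overlapping roles in endothelium, had 1.13 to 1.67 CPM in KO and 1.21 to 2.97 CPM in WT (log2 fold change -0.56, SE 0.251, edgeR adjusted p = 0.35). In the list of other TRAF proteins and partners of TRAF7, 18 genes, 8 were higher and 10 lower and none was called. Akt1 had 314 to 327 CPM in KO and 338 to 356 CPM in WT (log2 fold change -0.12, SE 0.0298, edgeR adjusted p = 0.103), and the stress kinase Mapk8 59.4 to 65.1 CPM in KO and 54.2 to 58.8 CPM in WT (log2 fold change 0.13, SE 0.0439, edgeR adjusted p = 0.197).

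Lgals1, the gene of galectin-1, a lectin that binds beta-galactosides, had 43.3, 50.7, 37.4 and 41.9 CPM in KO1, KO2, KO4 and KO6, against 59.3 (lowest), 63.8 (median) and 72.9 CPM (highest) in WT. Its log2 fold change was -0.59 (SE 0.085, edgeR adjusted p = 0.0112, and 0.0592 without KO1), and KO3 and KO5, at 35.3 and 47.9 CPM, also lay below every WT embryo. Of 10 galectin genes listed 4 were measured, and Lgals1 was the 1 called, beside 0.273% of all genes tested. Nothing is read from this count. The galectin-like Lgalsl had 31.9 to 36.5 CPM in KO and 26.3 to 33.6 CPM in WT (log2 fold change 0.23, SE 0.0682, edgeR adjusted p = 0.164).

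B3gnt3, an enzyme of the Golgi that extends sugar chains on surface proteins, had 0.309, 0.409, 0.477 and 0.44 CPM in KO1, KO2, KO4 and KO6 (6 to 9 counts), against 1.01 (lowest), 1.66 (median) and 2.15 CPM (highest) in WT. It fell with a log2 fold change of -1.996 (SE 0.297, edgeR adjusted p = 0.00894, and 0.0514 without KO1). Vsir, which encodes the inhibitory immune receptor VISTA, had 4.79, 4.95, 4.05 and 4.07 CPM, against 6.46 (lowest), 7.39 (median) and 8.47 CPM (highest) in WT (log2 fold change -0.73, SE 0.128, edgeR adjusted p = 0.0253). Its call was lost without KO1, KO4, KO6, WT3 or WT6, with adjusted p up to 0.0957. Of the embryos set aside, KO3 had 0.407 CPM of B3gnt3, within the range of the compared KO embryos, and 6.87 CPM of Vsir, within the WT range. KO5 had 2.58 CPM of B3gnt3 and 10.3 CPM of Vsir, above every WT embryo. With all 6 KO embryos the edgeR adjusted p was 0.269 for B3gnt3 and 0.391 for Vsir.

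**Figure D3:**
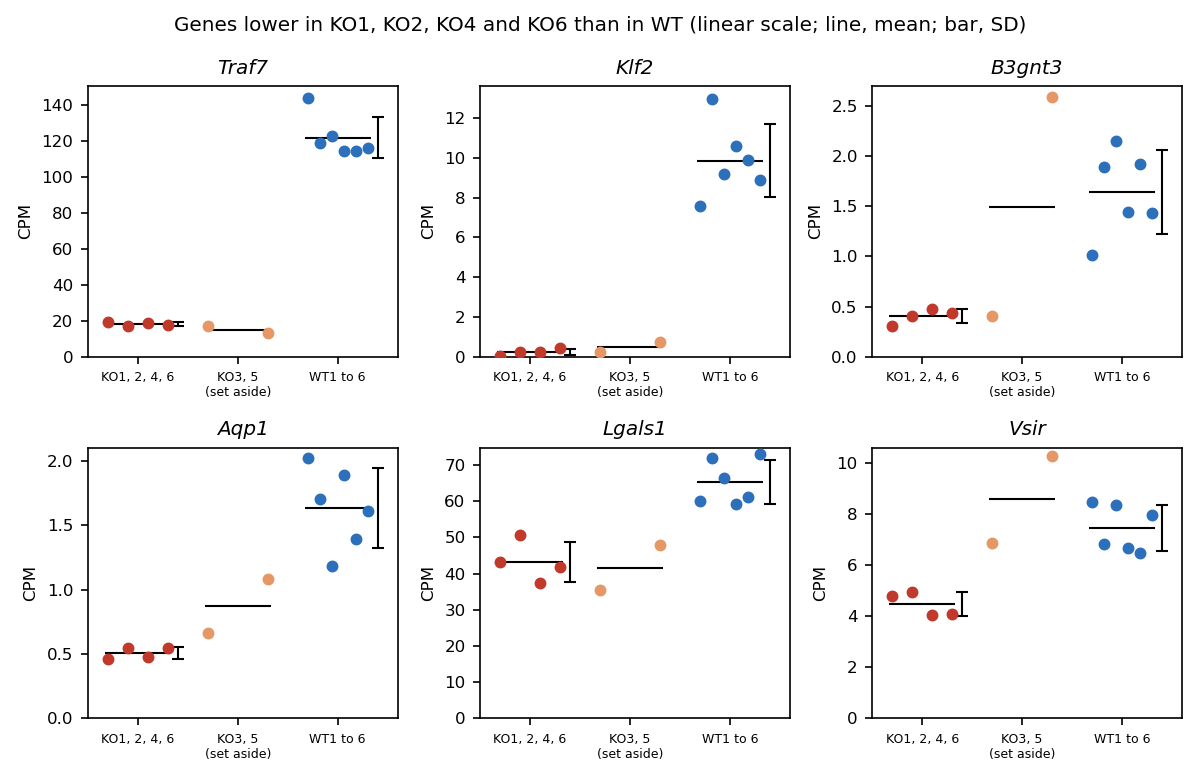
CPM (y axis, linear, starting at 0) of Traf7, Klf2, B3gnt3, Aqp1, Lgals1 and Vsir in each embryo: compared KO (red), KO set aside (orange) and WT (blue), with lines for the mean and bars for the SD of the groups of 4 and 6. In every panel the 4 compared KO embryos lie below all WT embryos, while KO5, at 2.58 CPM of B3gnt3 and 10.3 CPM of Vsir, lies above them.

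The other 8 genes that fell are highly expressed and changed by small amounts. Hsph1, a co-chaperone of the heat shock family, had 310.2, 289.6, 301 and 310.4 CPM in KO1, KO2, KO4 and KO6, against 339.5 (lowest), 358 (median) and 375 CPM (highest) in WT (log2 fold change -0.24, SE 0.0344, edgeR adjusted p = 0.00658). Actb, the cytoplasmic actin, had 2833 to 2915 CPM in KO and 3137 to 3378 CPM in WT (log2 fold change -0.16, SE 0.0262, edgeR adjusted p = 0.0149), and Dbn1, the actin-binding drebrin, 339 to 382 CPM in KO and 394 to 429 CPM in WT (log2 fold change -0.23, SE 0.0409, edgeR adjusted p = 0.0258). The splicing genes Sart1, Phf5a and Snrnp70 fell with log2 fold changes of -0.19, -0.20 and -0.16 (edgeR adjusted p = 0.0335, 0.0445 and 0.0492). Psmc2, of the cap of the proteasome, fell by 0.18 on the log2 scale (edgeR adjusted p = 0.0499), and Pmf1, of the kinetochore complex that pulls chromosomes apart, by 0.19 (edgeR adjusted p = 0.0453). Hsph1 kept its call when any 1 embryo was left out, Actb lost it without KO1, KO4 or WT6, and Dbn1 kept it in 3 of the 10 such fits, whereas Sart1, Phf5a, Snrnp70, Pmf1 and Psmc2 kept theirs in only 1 or 2 of the 10 such fits.

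Genes of the same machinery were counted in lists that were chosen after the calls had been seen. Of 35 proteasome subunits measured 33 were lower (median log2 fold change -0.09), of 32 heat shock proteins and chaperones 29 (median -0.08), of 39 actin, tubulin and associated genes 34 (median -0.07) and of 59 splicing factors 47 (median -0.07). The number called, all lower, was 1, 1, 2 and 3 in that order, beside 0.0934% of all genes tested. Nothing is read from these numbers, since the calls came before the lists. Every KO library lay below every WT library for 9, 9, 9 and 13 of the listed genes, which 2.37% of all genes tested did. Highly expressed genes leaned the same way: when genes were split by mean CPM into 4 groups of equal size, 60.3% were lower in the highest group (median -0.02), against 43.9% in the lowest group, and 91.4%, 84.4%, 92.3% and 98.3% of the measured members of these 4 lists sat in the highest group. What part the level of expression has in these counts was not tested.

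The list scores show how narrow the shift is. At the edges the groups met for the proteasome, where KO6 lay inside the WT range, and not for splicing. The proteasome score was -0.11 to -0.03 in KO and -0.04 to 0.05 in WT, and the splicing score -0.10 to -0.04 in KO and -0.02 to 0.03 in WT. KO5 was lowest in both, at -0.43 and -0.41, and KO3 had -0.18 and -0.13. Members next in line by p were Stip1, which links the chaperones HSP70 and HSP90, at 552 to 579 CPM in KO and 610.2 to 633 CPM in WT (log2 fold change -0.13, SE 0.0269, edgeR adjusted p = 0.0569), Tubb5, a beta-tubulin, at 3598 to 3758 CPM in KO and 3922 to 4055 CPM in WT (log2 fold change -0.11, SE 0.0228, edgeR adjusted p = 0.0569), and the RNA-processing gene Srrt, at 205 to 227 CPM in KO and 234 to 248 CPM in WT (log2 fold change -0.18, SE 0.0358, edgeR adjusted p = 0.0569). The proteasome subunit Psmc3 had 249 to 274 CPM in KO and 275 to 298 CPM in WT (log2 fold change -0.16, SE 0.0367, edgeR adjusted p = 0.0776).

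**Figure D4:**
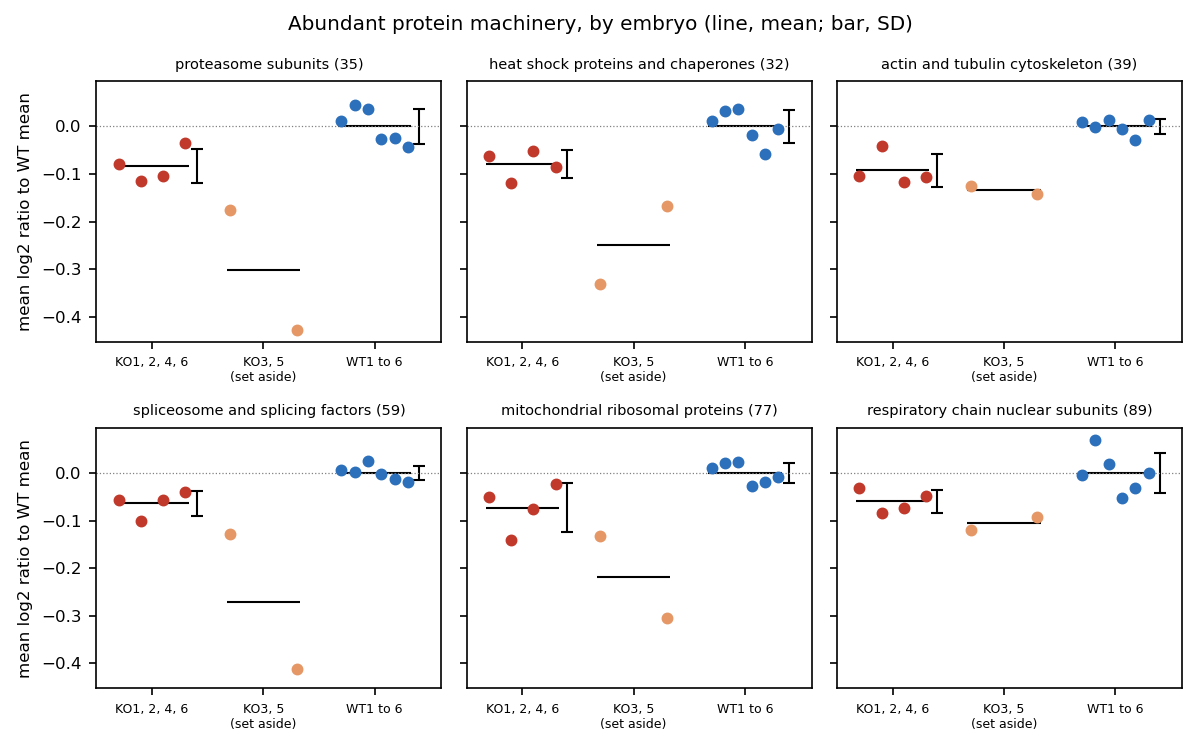
Mean log2 ratio to the WT mean (y axis) of 6 lists of protein machinery in each embryo, with the number of genes measured in brackets: compared KO (red), KO set aside (orange) and WT (blue), lines for means and bars for the SD of the groups of 4 and 6. The mean of the compared KO embryos lies a little below that of WT in each panel, with splicing scores of -0.10 to -0.04 against -0.02 to 0.03, and KO5 reaches -0.43 for the proteasome.

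Among the 27 genes that rose, 8 are in the HIF list and 19 outside it. For 23 of the 27 both KO3 and KO5 lay above all 4 compared KO embryos, an order found for 16.7% of all genes tested, and this held for 16 of the 19 outside the list. For 8 of the 14 genes that fell both lay below all 4, found for 15.2% of genes tested. The embryos set aside were chosen for high HIF genes, so these counts are a description. The calls of the 16 genes outside the list are a description too.

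Several of the risen genes outside the list are also known to respond to low oxygen, and are given by their values alone. Vldlr, a lipoprotein receptor, had 16.3, 21.3, 18.6 and 14.6 CPM in KO1, KO2, KO4 and KO6, against 9.09 (lowest), 9.94 (median) and 11.9 CPM (highest) in WT, and 42.4 and 86.1 CPM in KO3 and KO5 (log2 fold change of the 4 over WT 0.79, SE 0.113). Mgarp, a mitochondrial transport protein, had 7.54 to 11 CPM in KO and 5.51 to 6.3 CPM in WT, and Kdm7a, an oxygen-using histone demethylase, 47.2 to 64.7 CPM in KO and 37.7 to 42.5 CPM in WT. For neither did the groups overlap.

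The called genes included 4 from a list of collagen and lysine modifying enzymes and their partners. P4ha1, a collagen prolyl hydroxylase, had 126 to 144 CPM in KO and 92.1 to 111 CPM in WT (log2 fold change 0.39, SE 0.0527). Ero1l, the oxidase that makes disulphide bonds in the endoplasmic reticulum, had 54.6 to 76.1 CPM in KO and 44.8 to 49.3 CPM in WT (log2 fold change 0.53, SE 0.0706). Plod2, a collagen lysyl hydroxylase, had 68.8 to 84.7 CPM in KO and 52.7 to 67.7 CPM in WT (log2 fold change 0.40, SE 0.07). Loxl2, which cross-links collagen, had 108 to 132 CPM in KO and 87.8 to 101 CPM in WT (log2 fold change 0.32, SE 0.0596). Of 17 measured genes of this kind, listed after the calls were seen, these 4 were called, beside 0.273% of all genes tested. P4ha1 and Ero1l are also in the HIF list used in the selection, so their calls are a count only. Plod2 and Loxl2 stood higher still in KO3 and KO5, at 121 and 174 CPM of Plod2 and 204 and 253.5 CPM of Loxl2. Their calls are therefore a description. Nothing is read from the 4 of 17. Plod2 kept its call in 4 and Loxl2 in 3 of the 10 fits without 1 embryo. In all 9 were higher and 8 lower (log2 fold changes with a median of 0.12, and -0.02 without KO1).

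Ak4, an adenylate kinase of the mitochondrial matrix and a HIF list member, had 162, 178, 143 and 150.4 CPM in KO1, KO2, KO4 and KO6, against 108 (lowest), 115 (median) and 120.3 CPM (highest) in WT. KO3 had 248 CPM and KO5 134 CPM, so KO5 lay below the 4 compared embryos here. Pgm2, which interconverts sugar phosphates, had 86.3 to 129 CPM in KO and 69.9 to 79 CPM in WT (log2 fold change 0.52, SE 0.0864, edgeR adjusted p = 0.0335). Galk1, galactokinase, had 158 to 184 CPM in KO and 134 to 148 CPM in WT (log2 fold change 0.24, SE 0.0459, edgeR adjusted p = 0.0389). Each was called in 3 of the 10 fits without 1 embryo. KO3 and KO5, set aside for their HIF genes, stood higher still, at 225 and 303 CPM of Pgm2 and 239 and 274 CPM of Galk1. The calls of Pgm2 and Galk1 are therefore a description. Nadk2, which makes NADP in mitochondria, had 113 to 121 CPM in KO and 87.7 to 103 CPM in WT (log2 fold change 0.28, SE 0.0463, edgeR adjusted p = 0.02), lost without KO1, KO4 or WT6. Aldh6a1, of valine breakdown in mitochondria, had 15.4 to 17.9 CPM in KO and 11.9 to 14 CPM in WT (log2 fold change 0.41, SE 0.082, edgeR adjusted p = 0.0499), and lost its call in each of the 10 fits without 1 embryo.

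Plekha2, an adaptor that binds phosphoinositides, had 24.3, 23.9, 25.3 and 25.4 CPM in KO1, KO2, KO4 and KO6, against 17.4 (lowest), 17.6 (median) and 19.2 CPM (highest) in WT. It rose with a log2 fold change of 0.46 (SE 0.0617, edgeR adjusted p = 0.00379), and was called in each of the 10 fits without 1 embryo (adjusted p up to 0.0232). It stood higher still in KO3 and KO5, at 42.8 and 85.8 CPM, so the call of Plekha2 and its repeats are a description. The chloride transporter Clcn3 had 56.1 to 67.6 CPM in KO and 44.8 to 51 CPM in WT (log2 fold change 0.35, SE 0.0567, edgeR adjusted p = 0.0149, lost without KO1, KO4 or WT6). Map2k1, which encodes the kinase MEK1 upstream of ERK, had 114 to 131 CPM in KO and 104 to 111 CPM in WT (log2 fold change 0.22, SE 0.042, edgeR adjusted p = 0.0453). Map2k1 kept its call in 2 of the 10 fits without 1 embryo. Cmtm4, Fam169a, Zfp106, Abhd18 and Mmd rose with log2 fold changes of 0.25, 0.27, 0.19, 0.72 and 0.21, and each kept its call in 1 to 4 of those fits.

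Npr3, the clearance receptor for natriuretic peptides, which endocardium makes, did not run with the HIF genes across KO embryos. It had 43.8, 47.9, 40.1 and 44.8 CPM in KO1, KO2, KO4 and KO6, against 27.2 (lowest), 32.4 (median) and 36.2 CPM (highest) in WT, with no overlap. KO3 and KO5, at 37.8 and 35.1 CPM, lay between the groups or within WT. The log2 fold change was 0.45 (SE 0.0766, edgeR adjusted p = 0.0219), and the call was lost without KO1, KO2, KO6, WT2, WT5 or WT6, with adjusted p up to 0.0724, and 0.312 without KO2, KO6 and WT5. Npr3 was the 1 called gene among 23 endocardium and cushion genes, beside 0.273% of all genes tested, and nothing is read from this count. Of the 23 genes 9 were higher and 14 lower (log2 fold changes with a median of -0.06).

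H2-Ab1, a chain of MHC class II, had 6.96, 5.18, 6.37 and 5.5 CPM in KO1, KO2, KO4 and KO6, against 2.83 (lowest), 3.39 (median) and 3.94 CPM (highest) in WT. It rose with a log2 fold change of 0.81 (SE 0.138, edgeR adjusted p = 0.0219), and KO3 and KO5 had 19.6 and 30.8 CPM. On chromosome 17 it starts 1.63 Mb from the start of 2310061I04Rik. With Traf7, the deleted gene, it was 1 of the 2 called genes among 685 tested there. Over all genes tested 0.273% were called, so nothing is read from this count. The call was lost without KO1, KO4 or any WT embryo but WT1 (adjusted p up to 0.0841).

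Transcripts of the mitochondrial genome were lower in some of the KO embryos. Genes named mt- held 0.75, 0.715, 0.548 and 0.387% of counts in KO1, KO2, KO4 and KO6 (mean 0.6 ± 0.167%, SD, n = 4), against 0.585 (lowest) to 0.936% (highest) in WT (mean 0.776 ± 0.134%, SD, n = 6). KO1 and KO2 lay inside the WT range and KO4 and KO6 below it, and KO3 and KO5 had 0.432 and 0.286%. Of 14 genes measured of 15 listed, 12 were lower and 2 higher (median log2 fold change -0.42, and -0.27 without KO6), and none was called. Their levels are uncertain, since pieces of mitochondrial DNA copied into the nuclear genome can take part of the reads.

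Subunits of the respiratory complexes that the mitochondrion encodes were the lower ones. mt-Cytb, of complex III, had 594 to 981 CPM in KO and 971 to 1519 CPM in WT, where KO2 reached into the WT range (log2 fold change -0.64, SE 0.186, edgeR adjusted p = 0.204). mt-Co2, of complex IV, had 14.9, 16, 11.1 and 11 CPM in KO1, KO2, KO4 and KO6, against 14.2 (lowest), 21.3 (median) and 25.3 CPM (highest) in WT (log2 fold change -0.62, SE 0.182, edgeR adjusted p = 0.18), and its log2 fold change was followed by those of mt-Nd4 (-0.56), mt-Co1 (-0.46), mt-Nd5 (-0.43), mt-Co3 (-0.43), mt-Nd6 (-0.41), mt-Atp6 (-0.37), mt-Nd1 (-0.30), mt-Nd2 (-0.20) and mt-Nd3 (-0.09). mt-Nd4l, at 0.495 to 1.07 CPM in KO and 0.766 to 3.22 CPM in WT, had -1.15 (SE 0.394, edgeR adjusted p = 0.224), and mt-Atp8, with 2 to 10 counts in the 10 libraries, was not tested. Of the 14 genes, the 2 with a log2 fold change above 0 were those of the ribosomal RNAs. mt-Rnr1 had 217, 166, 141 and 87.3 CPM in the 4 KO libraries, against 75.4 (lowest), 91.9 (median) and 129 CPM (highest) in WT (log2 fold change 0.68, SE 0.248, edgeR adjusted p = 0.299), with KO1 highest and KO6 within the WT range. mt-Rnr2 had 269, 137, 129.6 and 69.2 CPM in KO1, KO2, KO4 and KO6, against 79.2 (lowest), 94.8 (median) and 139 CPM (highest) in WT, so that KO1 lay above and KO6 below every WT embryo. Its log2 fold change of 0.61 (SE 0.351, edgeR adjusted p = 0.508) was 0.18 without KO1.

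Nuclear genes for mitochondrial proteins leaned lower without a call. Of 89 respiratory chain subunits measured 74 were lower (median log2 fold change -0.07), as were 66 of 77 mitochondrial ribosomal proteins (median -0.08), and in each list 5 genes were lower without overlap, beside 2.37% of all genes tested. Of the respiratory chain list 53.9%, and of the mitochondrial ribosomal list 22.1%, sat in the most highly expressed of the 4 groups, in which 60.3% of all genes were lower, and the part of that lean was not tested. Cyc1, of complex III, had 178 to 191 CPM in KO and 194 to 204 CPM in WT (log2 fold change -0.13, SE 0.0331, edgeR adjusted p = 0.108), and Mrps26, of the small mitochondrial ribosomal subunit, 39.4 to 48.2 CPM in KO and 47.6 to 54 CPM in WT (log2 fold change -0.20, SE 0.061, edgeR adjusted p = 0.168). Of 34 factors for mitochondrial RNA and DNA 20 were higher and 14 lower. Cytosolic ribosomal proteins were lower for 65 of 78 (median -0.05), but for 50 of 78 without KO2 and KO6 (median -0.01).

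Heart muscle genes were measured a little higher in the compared KO embryos, with no gene called. Of 25 genes 24 were higher (median log2 fold change 0.15), the list scores being 0.21, 0.50, -0.04 and 0.22 in KO1, KO2, KO4 and KO6 and -0.19 to 0.17 in WT. Without KO2 and KO6 the split was 14 higher and 11 lower (median 0.01), and KO3, set aside, scored -4.69. Ryr2, the calcium channel that triggers each beat, had 14.3, 21.1, 13.8 and 18.2 CPM in KO1, KO2, KO4 and KO6, against 8.55 (lowest), 10.4 (median) and 13.6 CPM (highest) in WT, with no overlap (log2 fold change 0.66, SE 0.144, edgeR adjusted p = 0.0773). Myh7, the slow heart myosin, had 106 to 152 CPM in KO and 68.2 to 104 CPM in WT (log2 fold change 0.49, SE 0.146, edgeR adjusted p = 0.204), and Nppb, a natriuretic peptide, 3.14 to 6.29 CPM in KO and 2.42 to 3.84 CPM in WT (log2 fold change 0.70, SE 0.203, edgeR adjusted p = 0.158).

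Lists for the rear of the body rested on single embryos. All 21 posterior Hox genes measured of 24 listed were lower (median log2 fold change -0.51), and none was called. The list scores were 0.47, -5.32, 0.50 and -2.41 in KO1, KO2, KO4 and KO6, and WT5 stood at -1.58 against -0.03 to 0.65 in the other WT embryos. Without KO2 and KO6, 15 of the 21 were higher and 6 lower (median 0.19). Hoxc9, of the trunk, had 14 and 11.9 CPM in KO1 and KO4, no count in KO2 and 2.81 CPM in KO6, against 5.65 (lowest), 15.8 (median) and 19.3 CPM (highest) in WT. Tail bud and somite genes (25 of 28 lower, median -0.23) and limb genes (15 of 17 lower, median -0.20) followed, and without KO2 and KO6 had 10 of 28 and 9 of 17 lower.

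Yolk sac endoderm genes, 18 measured, were all higher (median log2 fold change 0.68), through KO6 with a score of 2.69, against 0.02, -2.34 and 0.02 in KO1, KO2 and KO4 and -0.85 to 1.96 in WT. Without KO6 17 of 18 were lower (median -0.91). Apob, a lipoprotein that the yolk sac secretes, had 3.45, 0.545, 5.12 and 52.5 CPM in KO1, KO2, KO4 and KO6, against 1.15 (lowest), 2.43 (median) and 20.9 CPM (highest) in WT. Primitive erythroid genes, which include Aqp1, gave 14 higher and 14 lower, and 27 of 28 lower without KO6. Neural lists went both ways: forebrain, midbrain and eye genes 15 higher and 11 lower, neural progenitor and neuron genes 10 higher and 20 lower, and neural crest genes 17 higher and 6 lower, none called, and the median of each of the 3 lists changed sign without KO2 or without KO6.

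**Figure D5:**
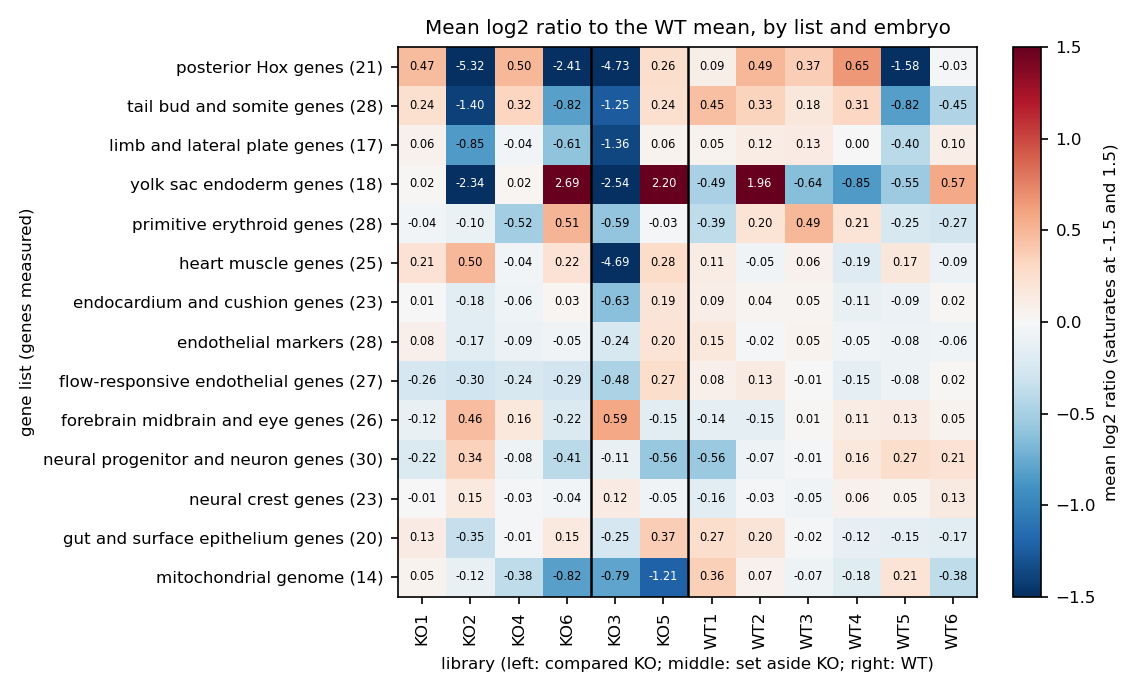
Mean log2 ratio to the WT mean for 14 gene lists (rows, with the number of genes measured) in each library (columns: compared KO, KO set aside, WT), printed in each cell and coloured from blue (below) to red (above), with the colour capped at both ends. Posterior Hox genes are lowest in KO2 (-5.32), KO3 (-4.73) and KO6 (-2.41), yolk sac genes are highest in KO6 (2.69), and heart genes are nearly lost in KO3 alone (-4.69).

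Stress and growth lists held few called genes. Vldlr, given above by its values alone, was the 1 called of 20 integrated stress response genes, beside 0.273% of all genes tested. The 20 genes split 9 higher and 11 lower (median log2 fold change -0.03). The stress factor Atf5 had 22.2 to 23.9 CPM in KO and 26.1 to 29.5 CPM in WT, without overlap (log2 fold change -0.24, SE 0.0581, edgeR adjusted p = 0.0878). None was called among 24 p53 targets (13 higher), 19 immediate early genes (8 higher), 15 ERK feedback genes (7 higher), 15 NF-kappaB genes (5 higher) and 23 cholesterol synthesis genes (6 higher). Without KO6 the numbers higher were 14, 10, 11, 8 and 13 in that order, and without KO2 and KO6 14 of the 15 ERK feedback genes were higher. Of 26 proliferation genes 19 were lower (median -0.04), none called. Birc5, which protects dividing cells, had 115 to 118 CPM in KO and 123 to 132 CPM in WT, without overlap (log2 fold change -0.14, SE 0.0341, edgeR adjusted p = 0.0994).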

How the data were processed

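RNA-seq libraries of single embryos at embryonic day 9.5 were compared, 4 KO against 6 WT. The authors deposited whole-number read counts per gene and FPKM values in 1 table of 54532 genes, 26752 of them without a count. The submitters' processing notes name build GRCm38. The sources used here do not name the aligner, the counter or the use of strand. Overlapping and antisense genes therefore cannot be told apart. The deposited counts were tested, and the deposited FPKM values served only to check the tissue. Every per-sample column was matched to a sample.

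Genes passing edgeR's filterByExpr (14991) were fitted with TMM factors and a robust quasi-likelihood F test, two-sided, with group as the one term (edgeR 4.0.16, R 4.3.3) and Benjamini-Hochberg adjustment over all genes tested. Genes with adjusted p of 0.05 or less were called. A second count asked in addition for an absolute log2 fold change of 1. CPM used TMM factors over all 12 libraries. A list score is the mean log2 ratio to the WT mean of each gene, with a prior count of 2. Totals of 16675204 to 21586416 counts gave floors of 3 counts, or 0.136 to 0.179 CPM. Intervals and floors of this kind cover counting error only. The fit was tested on simulated data first.

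The members and the 43 gene lists were chosen with earlier results of these data known, and 5 more lists were added after the calls were seen. Named were called genes, up to 20 in each direction by p, and members of lists. Called genes past that number and the genes next in line by p were chosen after their values were seen. Alternatives were DESeq2 1.42.0, limma 3.58.1 voom with quality weights, other scaling, no filter, each embryo left out, KO2 and KO6 left out with and without WT5, all 6 KO embryos, 3 groups, and a replicate block. RefSeq sequences of GRCm38.p6 covered up to 250 bases before each start.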

Additional observations from a re-analysis of the deposited data

Results flagged for a closer look

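In 14 of 212 groups of 4 or 6 libraries 1 embryo lay apart from the others by Dixon's criterion at the 95% level, which chance meets in about 1 in 20 groups. At the deleted loci, 2310061I04Rik was at 6.38 CPM in KO6 and at 1.13 to 1.82 CPM in the other 3 compared KO embryos, and Traf7 was at 144 CPM in WT1 and at 114 to 123 CPM in the other WT embryos.

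Among KO embryos, Dbn1 was high in KO2 (382 CPM), Sart1 low in KO4 (159 CPM), Fam169a high in KO6 (49.7 CPM), Zfp106 high in KO4 (325 CPM), Galk1 high in KO1 (184 CPM) and Psmc3 high in KO6 (274 CPM). Apob, a yolk sac gene, was at 52.5 CPM in KO6, against 0.545 to 5.12 CPM in KO1, KO2 and KO4, and at 20.9 CPM in WT2, against 1.15 to 5.08 CPM in the other WT embryos. Among WT embryos, Ero1l was high in WT4 (49.3 CPM), Nppb high in WT5 (3.84 CPM), Tubb5 high in WT1 (4055 CPM) and Hoxc9 low in WT5 (5.65 CPM, against 14.8 to 19.3 CPM in the others).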

How the results depend on the processing

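The 41 called genes (27 higher, 14 lower) became 288 with DESeq2 (122 and 166), 79 with voom (46 and 33), 106 with no filter on low counts (64 and 42), and 31 without the robust option (22 and 9). Leaving out 1 embryo gave 13 to 68 genes (8 to 43 higher, 3 to 25 lower). Without KO2 and KO6 there were 18 (12 and 6), without KO2, KO6 and WT5 9 (6 and 3), with all 6 KO embryos 3 (0 and 3, with 1501 higher and 1143 lower at an unadjusted p of 0.05) and with KO3 and KO5 as a group of their own 5 (2 and 3). The cause was not tested, and fewer embryos alone lower such counts. DESeq2 size factors and upper quartile factors in edgeR gave 38 and 41. With the replicate block there were 23 (15 and 8), and the deviations of same-numbered embryos correlated at -0.33 to 0.32, over 0.1 for 2 of 4 numbers, so the numbers were not taken as pairs. The log2 fold change turned round for Map3k3 (-0.0022 without KO1, -0.002 without WT2, up to 0.0598 without WT1), Mapk7 (-9e-04 without KO1, -0.0063 without KO4, -0.0091 without WT2, up to 0.026 without KO6), Apob (-0.89 without KO6, -0.37 without KO2 and KO6, -0.565 without WT5 too, up to 2.65 without WT2), mt-Nd2 (0.0054 without KO2 and KO6, 0.0199 without WT5 too), mt-Nd3 (0.028 with voom, -0.22 without KO1 to 0.11 without WT5, 0.20 without KO2, KO6 and WT5, 0.11 with the replicate block) and Hif1a (-0.16 with all 6 KO embryos). Leaving the HIF list out of the counts (33 genes) and the 5 added lists were chosen after seeing the data. For genes near 1 CPM, such as Aqp1 and B3gnt3, counts of 6 to 12 in each KO embryo limit the fold change.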
